A study of Mus musculus with 18 samples.

Results

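The Krüppel-like factors (KLFs) are zinc finger transcription factors, and 8 of their genes were followed here in erythroblasts and immature megakaryocytes of the mouse: Klf1, Klf2, Klf3, Klf4, Klf6, Klf7, Klf10 and Klf13. They were taken by name from the GENCODE vM21 annotation of mm10, and all 8 were found among its 21938 protein-coding genes. Each gene was described over its body plus 50 kb on each side, a window of 103 to 193 kb, by the peaks of H3K27ac and H3K4me3 that fell in it. The question was which paralogs carried the marks in erythroblasts, which in megakaryocyte precursors, and which in both.

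All cells came from bone marrow of adult C57BL6 mice, male by the study's methods, with no transgene or treatment named in the labels. Erythroblasts (ERY) were sorted as Ter119+ CD44+ cells of low forward scatter. Immature megakaryocytes (iMK) were sorted as CD41+ CD61+ cells without Ter119, Sca1 or cKit. Both sorts excluded cells with CD4, CD8, IL7Ra, CD11b, Ly6g or CD45R, so that T cells, B cells and granulocytes should have been depleted from both. ChIP-seq, in which chromatin is captured with an antibody to a histone mark and sequenced, gave 2 libraries of each mark in each cell type, 8 peak lists in all, out of 18 samples in the series. The other 10 samples were inputs without antibody and were not used here.

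KLF proteins bind CACCC boxes and related GC-rich elements through a cluster of zinc fingers at their C terminus, which is nearly the same in every paralog, while their N termini recruit either coactivators or corepressors. KLF1 is the erythroid member and drives globin, heme and red cell membrane genes. KLF2 and KLF4 are its close relatives and are known from endothelium, lymphocytes and monocytes. KLF6 and KLF7 form a second subgroup, KLF3 represses through the corepressor CTBP, and KLF10 and KLF13 bind the corepressor SIN3A. In the mouse, Klf3 is known to have a promoter that KLF1 activates in erythroid cells. H3K4me3 marks promoters, and H3K27ac marks active promoters and enhancers, so peaks of these marks show where a locus is set up for transcription but do not measure transcript.

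The promoters printed here are those of Klf2 and Klf4, called in iMK alone, of Klf1, whose H3K27ac covered the start itself in ERY alone, and of Klf3, whose start sites differed from each other. Each is the 250 bases before the RefSeq start site, in the direction of transcription (RefSeq sequence on GRCm38, the assembly of mm10). For Klf3, the 250 bases before a second start site, at chr5:64812339 in GENCODE, are shown as well. Of the 8 genes, 7 had an entry in the RefSeq promoter table. Capitals mark matches to CCNCNCCC, a CACCC box written so that it also takes GC boxes, and to GATAA, the core bound by GATA factors. Both were searched on both strands, and overlapping matches were all kept.
Klf1, chr8:84901732-84901981, plus strand: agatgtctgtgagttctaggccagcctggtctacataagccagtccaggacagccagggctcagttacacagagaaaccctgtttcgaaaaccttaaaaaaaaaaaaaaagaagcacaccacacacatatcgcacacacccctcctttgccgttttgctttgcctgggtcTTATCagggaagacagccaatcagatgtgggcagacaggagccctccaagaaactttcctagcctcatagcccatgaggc
Klf2, chr8:72318812-72319061, plus strand: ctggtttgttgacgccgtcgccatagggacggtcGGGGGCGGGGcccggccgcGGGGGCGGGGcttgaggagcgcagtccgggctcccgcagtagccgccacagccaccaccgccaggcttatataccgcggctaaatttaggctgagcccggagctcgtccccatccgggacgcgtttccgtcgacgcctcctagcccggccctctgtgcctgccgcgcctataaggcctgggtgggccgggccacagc
Klf4, chr4:55532476-55532725, minus strand: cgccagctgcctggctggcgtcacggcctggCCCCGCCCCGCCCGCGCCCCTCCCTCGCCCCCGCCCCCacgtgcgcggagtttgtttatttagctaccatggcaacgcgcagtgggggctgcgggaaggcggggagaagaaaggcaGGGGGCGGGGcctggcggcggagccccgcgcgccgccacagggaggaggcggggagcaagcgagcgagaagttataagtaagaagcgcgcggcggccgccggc
Klf3, chr5:64803271-64803520, plus strand: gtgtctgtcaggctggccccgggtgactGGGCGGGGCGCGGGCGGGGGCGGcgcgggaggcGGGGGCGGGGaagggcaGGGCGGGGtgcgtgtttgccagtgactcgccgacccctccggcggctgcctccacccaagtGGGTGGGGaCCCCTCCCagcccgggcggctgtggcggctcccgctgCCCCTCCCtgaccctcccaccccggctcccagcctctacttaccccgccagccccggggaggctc
Klf3 second start, chr5:64812089-64812338, plus strand: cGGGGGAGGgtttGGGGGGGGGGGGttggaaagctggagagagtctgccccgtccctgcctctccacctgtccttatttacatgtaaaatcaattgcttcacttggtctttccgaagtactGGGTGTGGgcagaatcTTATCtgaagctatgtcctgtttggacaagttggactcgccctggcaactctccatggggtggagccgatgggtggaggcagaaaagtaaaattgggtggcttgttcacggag

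Klf1 had 49.2% GC and 3 CpG in these 250 bases, and the second Klf3 promoter had 54.0% GC and 6 CpG. Klf2 had 71.2% GC and 29 CpG, Klf4 74.0% and 32, and the first Klf3 promoter 78.4% and 23. CCNCNCCC began at 0 positions in Klf1, 4 in Klf2, 9 in Klf4, 10 in the first Klf3 promoter and 7 in the second, and GATAA at 1 position in Klf1 and 1 in the second Klf3 promoter. Among all 32851 RefSeq promoters of the same length, 45.9% held CCNCNCCC and 22.6% held GATAA, so a match by itself is common. Every printed base of Klf1 lay under H3K27ac peaks in both ERY libraries and none did in either iMK library. The printed bases of Klf2 and of Klf4 lay under H3K27ac peaks throughout in both iMK libraries and nowhere in ERY.

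The peak lists held 25750 and 21768 H3K27ac peaks in ERY, against 22931 and 24781 in iMK, and 8841 and 6275 H3K4me3 peaks in ERY, against 7578 and 13222 in iMK. The second iMK library of H3K4me3 covered 33.8 Mb, against 11.3 Mb in the first. ERY peaks of H3K27ac were also wider, and the 6894 promoter regions called in all 4 libraries averaged 4261 bp in ERY and 2564 bp in iMK. Read depth is not held in the lists, and the depths that the study gives elsewhere were not used here. Erythroid marker promoters carried H3K27ac in 8 of 8 cases in both ERY libraries and in 0 of 8 in both iMK libraries. Megakaryocyte marker promoters were called in 4 of 12 cases in both ERY libraries, against 1 and 3 of 12 in iMK. Itga2b, which encodes the CD41 used to sort iMK, had an H3K27ac promoter call in both ERY libraries and in neither iMK library. Itgb3, which encodes CD61, was called in both iMK libraries only, and Pf4 and Ppbp had no promoter call in any of the 4. Over gene body plus 50 kb, H3K27ac covered 2.95% to 3.76% of the Pf4 and Ppbp windows in iMK and 0% in ERY. By the limma test described below, 3 of the 12 megakaryocyte markers were higher in ERY and 4 lower, where 27.8% and 19.1% of all genes were. The summed coverage of these markers was 141 to 157 points in ERY and 80.4 to 103 points in iMK. Myeloid marker promoters were called in 1 and 0 of 14 cases in ERY, against 11 and 13 of 14 in iMK, and their summed coverage was 72.3 to 84.1 points in ERY and 168 to 281 points in iMK. Lymphoid marker promoters were called in 0 of 8 in both ERY libraries, and in 2 and 3 of 8 in iMK. The name iMK is therefore used here as the label of these libraries. In such pooled cells, fewer cells of a type and less of the mark per cell cannot be told apart.

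Promoters, taken as 1 kb on each side of any annotated start site, divided the 8 genes into those marked in both cell types and those marked in iMK. With H3K27ac, Klf1, Klf3, Klf6, Klf7, Klf10 and Klf13 were shared, which means called in both ERY and both iMK libraries, and Klf2 and Klf4 were iMK-only, called in both iMK libraries and in no ERY library. No KLF promoter of the 8 was ERY-only. Over all protein-coding genes, 36.0% of promoters were shared, 8.56% iMK-only and 2.17% ERY-only for H3K27ac. With H3K4me3, Klf1, Klf3, Klf10 and Klf13 were shared and Klf2 and Klf4 again iMK-only, while Klf6 and Klf7 were called in the first ERY library and both iMK libraries but not in the second ERY library, a class of mixed calls that took in 23.8% of all promoters. The corresponding shares of all promoters were 24.6% shared, 4.89% iMK-only and 0.378% ERY-only for H3K4me3. An uncalled promoter has no listed peak, and the mark may still be present below the caller's threshold.

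**Figure D1:**
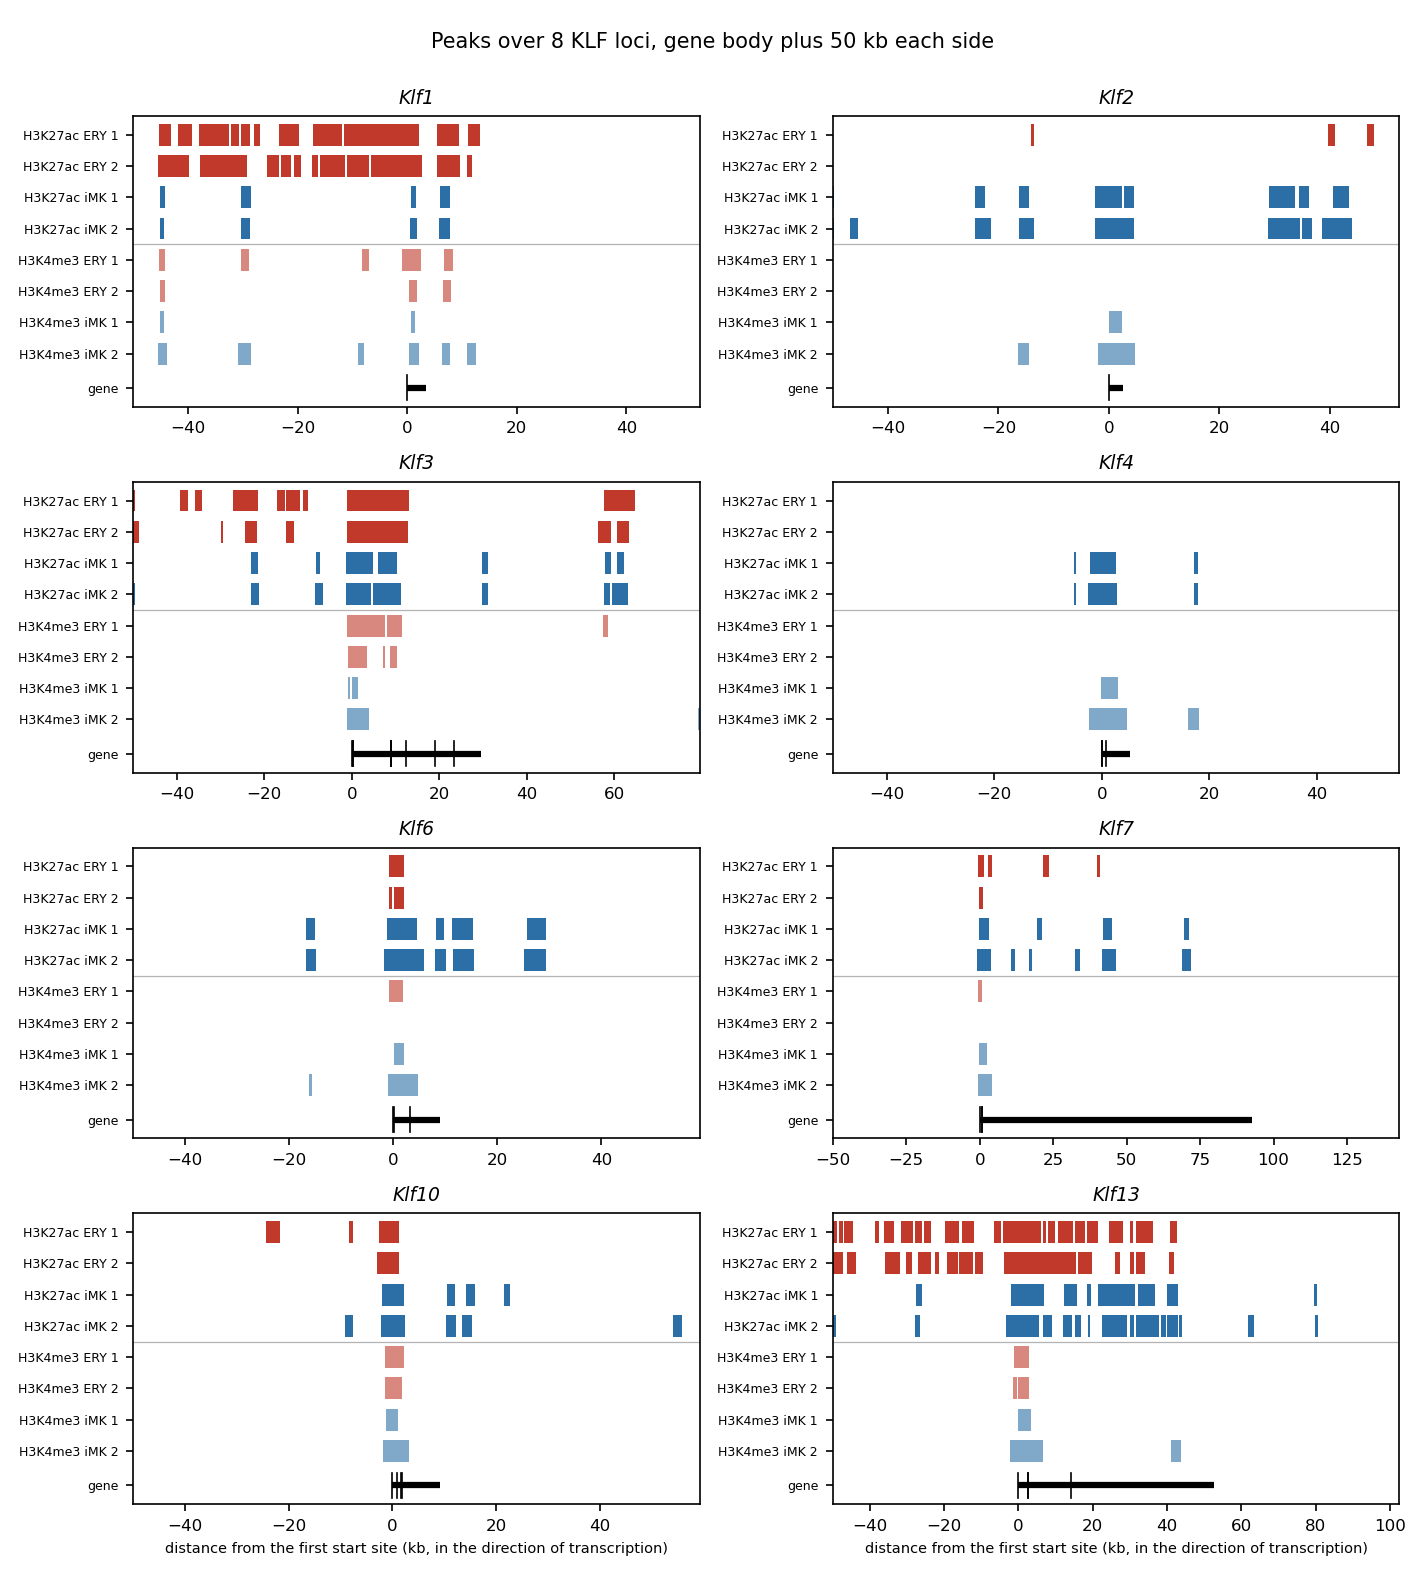
Peaks of each of the 8 libraries (rows, ERY in red above iMK in blue within each mark, H3K4me3 in paler tones) over the windows of the 8 KLF genes, by distance in kb from the first annotated start site in the direction of transcription. The black bar is the gene body and vertical ticks are annotated start sites. Klf2 and Klf4 have no promoter peak in ERY rows, and H3K27ac fills 41.8% of the Klf1 window on average in ERY and 5.51% in iMK.

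The share of each window under H3K27ac peaks gave a graded view of the same loci. Coverage was higher in ERY at Klf1, a gene that sets up the red cell program, and lower in ERY at Klf2, Klf4 and Klf6. It was higher in ERY at Klf13 as well, by a call that turned round under quantile normalization between libraries, and the sign of Klf13 was also negative within 10 kb of the gene and over the gene body alone. In limma's moderated test over 17086 genes with Benjamini-Hochberg adjustment, 2 of the 8 were thus higher in ERY and 3 lower, where 27.8% of all genes tested were higher and 19.1% lower. At an unadjusted p under 0.05, 6 of 8 passed, against 56.8% of all genes. The median difference over the 8 genes was -4.74 percentage points of the window, ERY minus iMK, against 0.371 over all genes. In 3 of the 8, Klf1, Klf3 and Klf13, both ERY libraries lay above both iMK libraries, which held for 43.3% of all genes, and in the other 5 both lay below, which held for 32.6%.

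**Figure D2:**
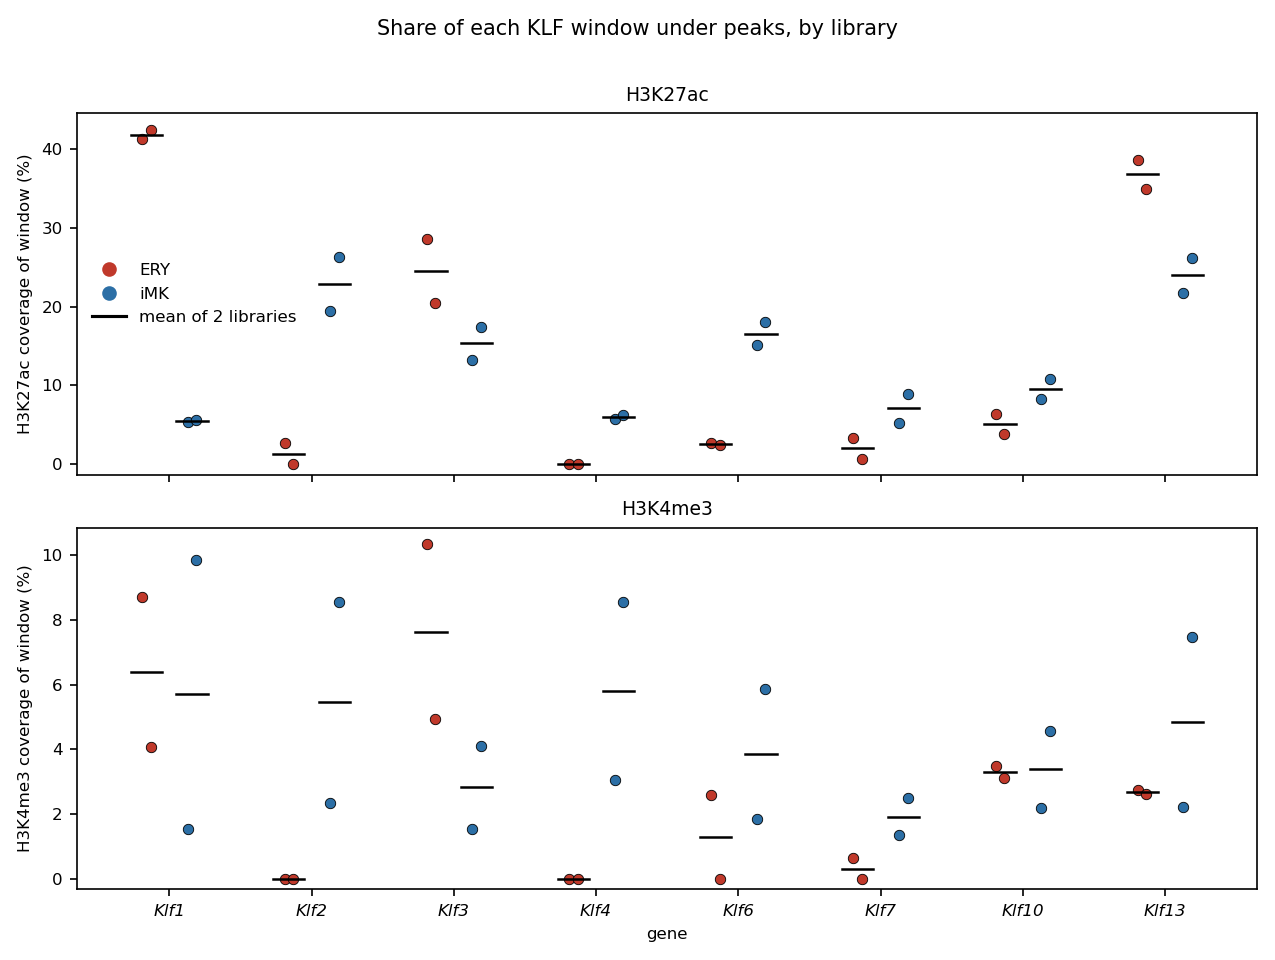
Percent of each KLF window (gene body plus 50 kb) under peaks, with 1 point per library (ERY red, left; iMK blue, right) and a bar at the mean of 2 libraries, H3K27ac above and H3K4me3 below. H3K27ac points of ERY and iMK do not overlap for any of the 8 genes, while H3K4me3 points overlap for Klf1, Klf6, Klf10 and Klf13.

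Klf1, the erythroid activator, had the widest H3K27ac difference of the 8 over its gene plus 50 kb and plus 10 kb. Over the gene body alone, Klf2, Klf4 and Klf6 differed by more points than Klf1, and within 5 kb of the start sites Klf2 did. Peaks covered 41.2% and 42.4% of its window in ERY, against 5.42% and 5.61% in iMK, so that the libraries of each cell type lay close together and far from the other. The means were 41.8 ± 0.821% in ERY and 5.51 ± 0.137% in iMK (SD, n = 2 each), and the difference was 36.3 points (SE 1.99, limma adjusted p = 0.00656). Within 10 kb of the gene, coverage was 78.2% and 74.8% in ERY and 11.98% and 14.6% in iMK, a difference of 63.2 points (adjusted p = 0.00650). Over all 14467 genes tested in this narrower window, 22.0% were higher in ERY and 17.2% lower. ERY listed 11 H3K27ac peaks in the window in each library and iMK listed 4 in each. The peak over the Klf1 start ran from -11.5 to 2.07 kb in the first ERY library, a single peak of 13600 bp, and from -6.53 to 2.67 kb in the second, 9200 bp wide. In iMK the promoter call rested on short peaks inside the gene, from 0.673 to 1.67 kb in the first library (1000 bp) and from 0.473 to 1.87 kb in the second (1400 bp). The start site itself was therefore under H3K27ac in both ERY libraries and in neither iMK library. That pattern was shown by 2.75% of the 93513 annotated start sites of protein-coding genes. H3K4me3 over the gene ran from -0.927 to 2.47 kb and from 0.273 to 1.87 kb in ERY, and from 0.673 to 1.47 kb and from 0.273 to 2.07 kb in iMK. The window also holds promoters of other genes, and the wide peak of the first ERY library reaches that of Gcdh, so the coverage does not belong to Klf1 alone. With promoters taken as 0.5 kb on each side, the Klf1 H3K27ac promoter was called in both ERY libraries and in part of the iMK libraries. The H3K27ac call held in 11 of 12 alternative settings and missed the threshold when only the gene body was measured (34.9 points, adjusted p = 0.0880).

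Klf2 and Klf4, the relatives of Klf1, carried the marks in the libraries labelled iMK. At Klf2, H3K27ac covered 2.73% and 0% of the window in ERY, against 19.5% and 26.3% in iMK. The ERY peaks were 3 short ones in the first library, all more than 10 kb from the gene, and iMK listed 8 in each library. The difference was -21.5 points (SE 2.92, limma adjusted p = 0.0120). Its promoter peak ran from -2.43 to 2.37 kb in the first iMK library and from -2.43 to 4.57 kb in the second. Downstream, a region from 28.8 to 36.8 kb was also called in both iMK libraries and in no ERY library. The H3K27ac call at Klf2 was lost without the first ERY library (adjusted p = 0.104), the second ERY library (0.114) or the second iMK library (0.0622), with the difference between -18.1 and -22.9 points, and with only the peaks at or above the median fold of their list (-10.2 points, 0.103).

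Klf4, known for its part in monocyte differentiation, was without any H3K27ac or H3K4me3 peak in ERY over its whole window. In iMK, H3K27ac covered 5.70% and 6.27% of the window, so the difference was -5.98 points (SE 0.407, limma adjusted p = 0.00656), and it passed in all 12 alternative settings. Both ERY libraries stood at 0%, a floor without spread (SD 0), where H3K27ac below the caller's threshold would not be seen. Klf4 entered the test through its iMK coverage alone. With either iMK library left out, the gene's own spread came from that floor alone, so passing in those settings gives no support. The 3 iMK peaks stood at the same places in both libraries. The promoter peak was 4800 bp wide in the first library and 5400 bp in the second, with folds over control of 10.4 and 11.2. A 400-bp peak lay at -5.13 to -4.74 kb, with folds of 6.52 and 2.85, the latter above 8.71% of its list. A peak of 800 bp lay at 17.1 to 17.9 kb, with folds of 10.9 and 6.13. H3K4me3 at the Klf4 promoter spanned 3200 bp in the first iMK library and 7000 bp in the second. Myeloid marker promoters, given above, were called in iMK in the same direction as Klf2 and Klf4, and their part in these results was not tested.

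Klf6, a broadly expressed factor that cells induce early after stimulation, was marked in both cell types at its promoter and in iMK around it. H3K27ac covered 2.75% and 2.39% of the window in ERY and 15.1% and 18.0% in iMK, a difference of -13.96 points (SE 1.45, limma adjusted p = 0.00812). The promoter peaks covered 3000 and 2600 bp in ERY, against 5800 and 7600 bp in iMK. In ERY the promoter was the only place in the window with H3K27ac. In iMK, 4 distal regions that no ERY library called were added, each more than 1 kb from every protein-coding start site. The strongest of these lay at -16.7 to -14.9 kb, with folds of 17.4 and 19.2, close to the folds of 20.1 and 18.4 at the Klf6 promoter in the same libraries. The call at Klf6 was lost without the first ERY library (-14.1 points, adjusted p = 0.0752), without the second (-13.8 points, 0.0703) and with the higher-fold peaks of each list (-9.82 points, 0.155).

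The central 300 bases of that Klf6 region and of the Klf4 region at 17.1 kb are given as examples of distal sequence under iMK-only H3K27ac. They were read from GRCm38 in the direction of the gene's transcription. Start sites of noncoding genes were not considered in calling a region distal. Capitals mark the CACCC and GATA motifs used above, the ETS core GGAAGT and the core bound by RUNX factors, written TGTGGT, each searched on both strands.
Klf6 distal, chr13:5845551-5845850, plus strand: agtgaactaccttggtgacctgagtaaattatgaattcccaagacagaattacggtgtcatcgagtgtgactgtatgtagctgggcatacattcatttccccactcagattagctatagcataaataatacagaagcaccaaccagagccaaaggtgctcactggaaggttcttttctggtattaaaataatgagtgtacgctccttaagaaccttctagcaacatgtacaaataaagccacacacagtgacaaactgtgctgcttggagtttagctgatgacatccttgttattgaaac
Klf4 distal, chr4:55514851-55515150, minus strand: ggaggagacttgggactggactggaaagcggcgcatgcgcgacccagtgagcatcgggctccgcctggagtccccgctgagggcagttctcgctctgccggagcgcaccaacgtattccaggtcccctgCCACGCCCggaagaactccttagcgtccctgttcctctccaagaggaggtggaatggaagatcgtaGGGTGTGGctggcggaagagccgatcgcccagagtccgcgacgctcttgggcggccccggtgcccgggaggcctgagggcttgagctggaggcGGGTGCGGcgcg

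The Klf6 stretch was AT-rich, with 40.7% GC, 3 CpG and no match to any of the 4 motifs. The Klf4 stretch had 67.7% GC, 28 CpG and 3 matches to CCNCNCCC. In the second iMK library, 83.3% of the Klf6 stretch and all of the Klf4 stretch also lay under H3K4me3. In the central 300 bases of 28536 distal H3K27ac regions, 24.8% held the CACCC motif, 34.6% the GATA motif, 22.7% the ETS core and 24.1% the RUNX core.

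Klf7, the partner of Klf6 in its subgroup, showed smaller values in the same direction. H3K27ac covered 3.32% and 0.726% of its window in ERY, against 5.29% and 8.92% in iMK, and the difference of -5.08 points did not pass (SE 1.73, limma adjusted p = 0.0826). ERY peaks at the Klf7 promoter were 2000 and 1400 bp wide with folds of 3.06 and 2.52. The iMK peaks were 3400 and 4600 bp wide with folds of 17.5 and 16.6. Folds are not scaled between lists, and the median H3K27ac fold was 3.06 and 2.77 in the ERY lists and 5.79 and 5.65 in the iMK lists. Inside the gene, which is 92836 bp long, regions at 41.5 to 46.5 kb and at 68.7 to 71.9 kb were called in both iMK libraries and in neither ERY library.

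Klf3, the CTBP-binding repressor, carried both marks at its first promoter in every library and differed at a second start site. H3K27ac covered 28.6% and 20.4% of the window in ERY, against 13.3% and 17.5% in iMK, and the difference of 9.12 points did not pass (SE 3.77, limma adjusted p = 0.125). Within 10 kb of the gene the difference was 0.417 points, and after quantile normalization of the wide window it was -2.72 points. A single H3K27ac peak ran from the promoter to 13.0 kb in the first ERY library and to 12.8 kb in the second. In iMK the same stretch was 2 peaks in each library, which together measured 10400 and 12200 bp. Transcripts with starts close together lie 8951 to 8996 bp inside the gene, at the second start printed above. There, H3K4me3 peaks ran from 8.01 to 11.4 kb in the first ERY library and from 8.81 to 10.2 kb in the second, and no H3K4me3 peak came within 1 kb of these starts in either iMK library. The folds of these ERY peaks were 5.55 and 2.99, above 51.6% and 11.8% of the peaks of their own lists, so the second was weak. H3K27ac covered the same starts in all 4 libraries. Start sites with H3K4me3 within 1 kb in both ERY and neither iMK library made up 0.372% of all 93513. These starts were singled out after their values were seen, and no test was made of them. A further annotated start, 12462 bp inside the gene, was under H3K27ac in both ERY libraries and in neither iMK library, without H3K4me3 in any.

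**Figure D3:**
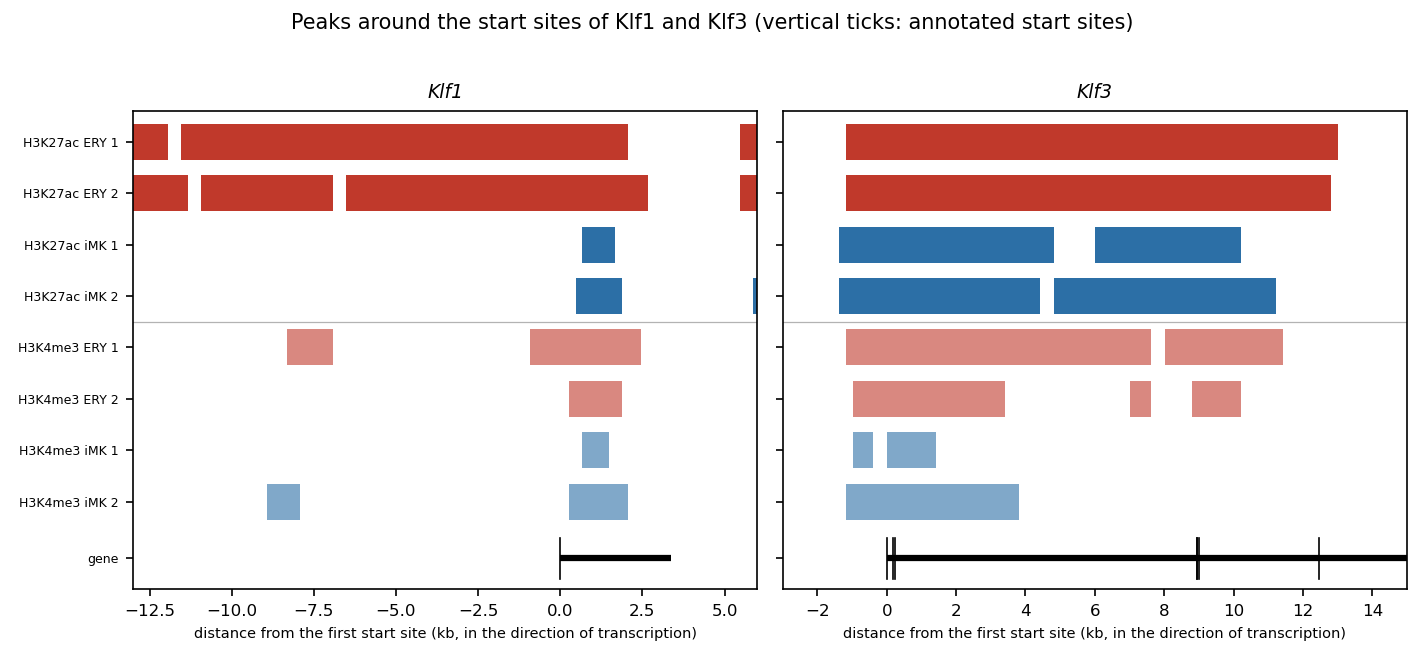
Peaks around the start sites of Klf1 (left) and Klf3 (right) in the 8 libraries (rows, ERY red above iMK blue within each mark), by distance in kb from the first start site, with annotated start sites as vertical ticks. At Klf1, ERY H3K27ac spans the start and iMK H3K27ac begins 0.473 or 0.673 kb inside the gene, and at Klf3 the H3K4me3 near 8.95 kb is seen in ERY rows.

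Klf10, which TGF-beta induces and which binds SIN3A, had shared promoter peaks of both marks and more H3K27ac around it in iMK. Coverage was 6.41% and 3.84% in ERY, against 8.24% and 10.8% in iMK, and the difference of -4.39 points did not pass over the wide window (SE 1.56, limma adjusted p = 0.0908). Within 10 kb it was 15.05% and 14.4% in ERY and 26.7% and 34.2% in iMK, a difference of -15.7 points that passed (SE 3.37, adjusted p = 0.0441). Regions at 10.3 to 12.3 kb and at 13.5 to 15.9 kb, beyond the end of the gene, were called in both iMK libraries and in neither ERY library. H3K27ac folds at the Klf10 promoter were 3.79 and 2.46 in ERY and 15.1 in both iMK libraries. These folds are not scaled between lists, whose medians are given above with Klf7.

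Klf13, the other SIN3A-binding member and a known regulator of erythroid and lymphoid genes, was densely marked in both cell types, with a mean H3K27ac coverage of 36.8% in ERY and 23.96% in iMK. H3K27ac covered 38.6% and 34.9% of the window in ERY, against 21.8% and 26.2% in iMK, with 21 and 15 peaks in ERY and 8 and 15 in iMK. The difference of 12.8 points passed (SE 3.13, limma adjusted p = 0.0401), yet it was -0.369 points within 10 kb of the gene (50.2% and 41.2% in ERY, 42.7% and 49.4% in iMK), -4.38 points over the gene body alone and -8.95 points after quantile normalization (adjusted p = 0.0120). Within 5 kb of its start sites it was 30.5 points (SE 3.20, adjusted p = 0.0139), with 88.1% and 93.3% covered in ERY and 58.1% and 62.3% in iMK. The ERY-only regions of this window, 5 in number, all lay upstream, between -46.9 and -11.9 kb, and 1 iMK-only region lay downstream at 79.5 to 80.5 kb. The call was also lost when any 1 of the 4 libraries was left out, with differences of 10.6 to 15.02 points and adjusted p of 0.107 to 0.172.

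**Figure D4:**
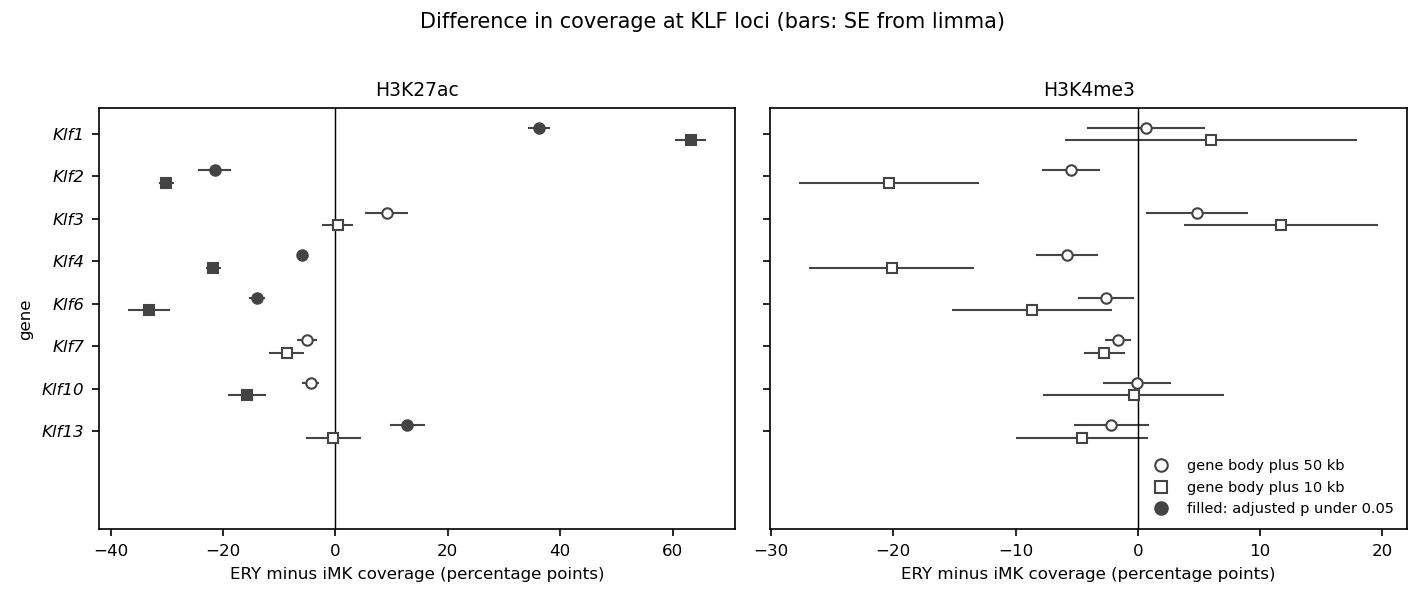
Difference in coverage, ERY minus iMK in percentage points, at the 8 KLF genes for H3K27ac (left) and H3K4me3 (right), over gene body plus 50 kb (circles) and plus 10 kb (squares), with limma's SE as bars and filled symbols where the adjusted p is under 0.05. Klf1 is at 36.3 and 63.2 points for H3K27ac, Klf2, Klf4 and Klf6 lie below 0 and filled in both windows, Klf13 is filled at 12.8 points in the wide window, and no H3K4me3 symbol is filled.

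For H3K4me3, limma called none of the 8 genes in either direction, and it called 0% of 16227 genes higher and 0% lower, while 5.99% of all genes had an unadjusted p under 0.05. Klf2 and Klf4 had limma p of 0.0229 and 0.0210 before adjustment (adjusted p = 0.831 for both). H3K4me3 covered 0% of the Klf2 window in both ERY libraries and 2.34% and 8.57% in iMK. It covered 0% of the Klf4 window in both ERY libraries and 3.04% and 8.55% in iMK. At both genes the iMK libraries differed between themselves by more than the first of them differed from ERY. Without the first iMK library, ERY at 0% was set against the second iMK library alone, at 8.57% for Klf2 and 8.55% for Klf4. The only spread left was that of both ERY libraries at 0%, so a pass in this setting gives no support. At Klf3, H3K4me3 covered 10.3% and 4.94% in ERY and 1.54% and 4.09% in iMK (adjusted p = 0.935), and at Klf1 it covered 8.71% and 4.06% in ERY and 1.55% and 9.87% in iMK (adjusted p = 0.991). In Klf3 both ERY libraries lay above both iMK libraries (2.12% of all genes), and in Klf2, Klf4 and Klf7 both lay below (20.3%). The other 4 genes, Klf6, Klf7, Klf10 and Klf13, ranged from 0% to 3.48% in ERY and from 1.35% to 7.47% in iMK.

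Whether the cell types differed more in H3K27ac than in H3K4me3 was tested as the interaction of cell type and mark over the 8 libraries. The fit used 1 residual variance per gene for both marks, although their spread differed. At Klf1 the SD in ERY and iMK was 0.821 and 0.137 points for H3K27ac and 3.28 and 5.88 for H3K4me3. Points were not scaled to the breadth of each mark, which covered 42.9 to 77.0 Mb per library for H3K27ac and 9.02 to 33.8 Mb for H3K4me3. The H3K27ac difference exceeded the H3K4me3 difference by 35.6 points at Klf1 (SE 5.06, limma adjusted p = 0.00538). It was more negative than the H3K4me3 difference by an interaction of -16.05 points at Klf2 (SE 4.21, adjusted p = 0.0365) and -11.4 points at Klf6 (SE 2.83, adjusted p = 0.0305). Thus 3 of 8 genes passed, where 21.8% of 17553 genes did. The Klf13 interaction was 14.98 points and did not pass (SE 4.98, adjusted p = 0.0761), and Klf4, where both marks were lower in ERY, gave -0.190 points (SE 2.38, adjusted p = 0.960). When single libraries were left out, the Klf1 interaction passed each time, whereas Klf2 and Klf6 lost theirs in most cases. Klf2 kept it without the first iMK library of H3K27ac and without the second iMK library of H3K4me3, and Klf6 kept it without either iMK library of H3K4me3.

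Joined across the 4 libraries of a mark, the H3K27ac peaks in the 8 windows made 70 regions, of which 8 were ERY-only, 18 iMK-only, 15 shared and 29 called in some other combination. Over the genome, 16.5% of 42199 regions fell in the ERY-only class, 21.7% in the iMK-only class and 19.2% in the shared class. Among the 57 regions more than 1 kb from every annotated start site of a protein-coding gene, 7 were ERY-only, 16 iMK-only and 6 shared. Of 28834 such regions in the genome, 19.8%, 23.3% and 4.22% fell in these classes. The 7 distal ERY-only regions lay at Klf13 (5), Klf1 (1) and Klf3 (1). H3K4me3 made 20 regions, of which the single ERY-only region was the one at the second Klf3 start and the 2 iMK-only regions were the promoters of Klf2 and Klf4, and 5 were shared, where 1.47%, 7.78% and 30.9% of all H3K4me3 regions fell in these classes. Every H3K4me3 peak in the windows touched H3K27ac peaks of both libraries of the same cell type in ERY (12 of 12 and 9 of 9) and in the first iMK library (10 of 10), and 16 of 18 did so in the second iMK library. The same share over all H3K4me3 peaks was not computed, so this overlap cannot be called particular to the KLF windows.

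Peak folds are not scaled between libraries, so the peak of highest fold at each promoter was also ranked within its own list. H3K27ac at the Klf1 promoter had a higher fold than 84.9% and 87.6% of the peaks of the ERY lists, against 67.9% and 40.3% of the iMK lists. Klf7 ran the other way, above 49.8% and 42.0% of ERY peaks and 92.4% and 94.3% of iMK peaks. Klf10 was above 64.9% and 40.0% in ERY and above 88.9% and 92.5% in iMK. By its highest peak, Klf6 ranked high in both cell types, above 86.0% and 91.9% of ERY peaks and 94.9% and 96.001% of iMK peaks. The 91.9% belonged to a peak of 600 bp in the second ERY library. The other Klf6 promoter peak of that library, 2000 bp wide, ranked above 45.5% of the list. The ranks of ERY and iMK did not overlap at Klf1, Klf6, Klf7, Klf10 and Klf13, and they overlapped at Klf3. These ranks were described and not tested. The share of all promoters whose ranks do not overlap was not computed, so no background stands beside these genes.

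**Figure D5:**
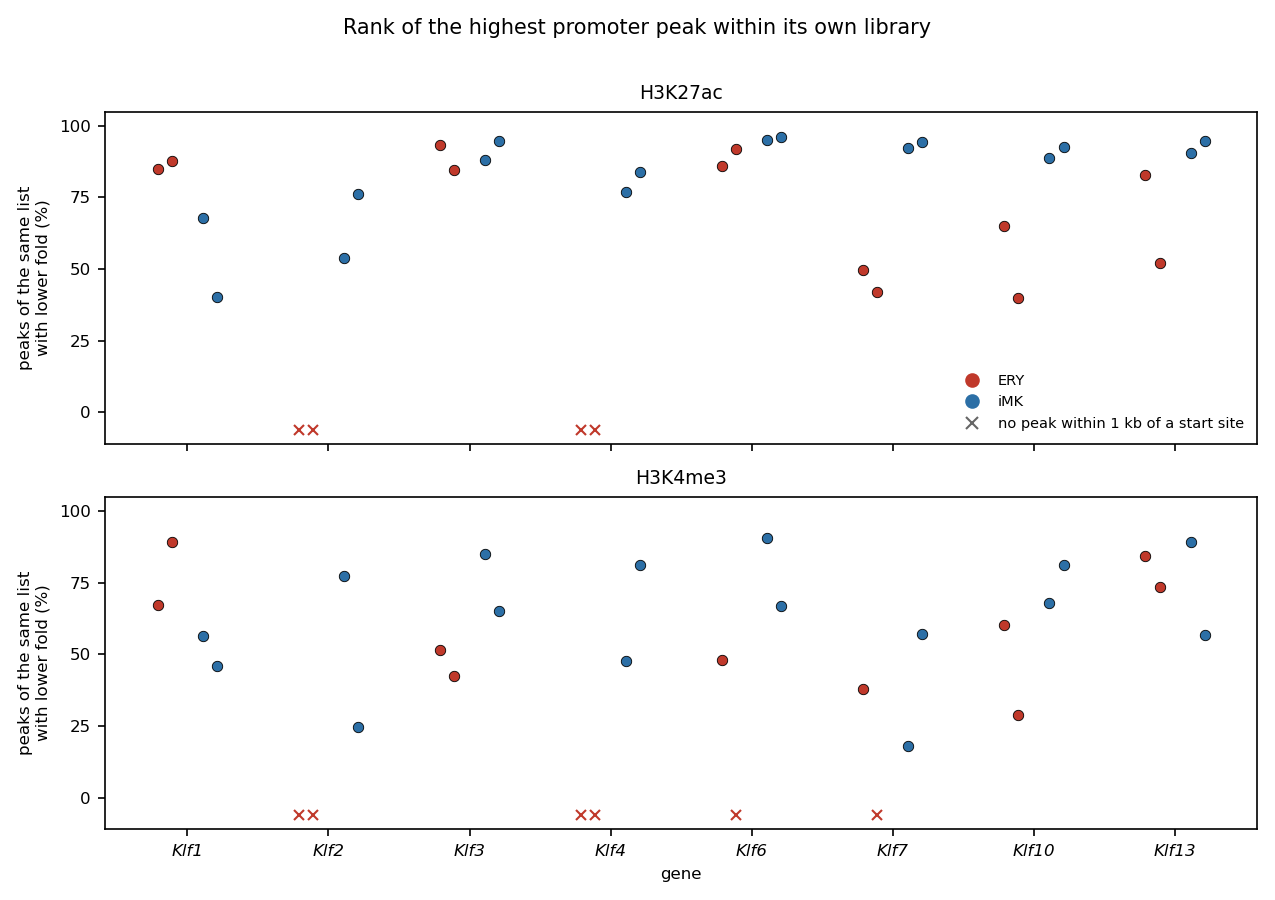
Percent of peaks in the same list with a lower fold than the highest peak at each KLF promoter, 1 point per library (ERY red, left; iMK blue, right), H3K27ac above and H3K4me3 below, with a cross where no peak lay within 1 kb of a start site. For H3K27ac, Klf1 ranks higher in ERY and Klf7 and Klf10 rank higher in iMK, and Klf2 and Klf4 have crosses in ERY.

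The rest of the family was counted for comparison. Of 9 other KLF genes, Klf5, Klf9, Klf11 and Klf16 had shared H3K27ac promoters, and Klf12, Klf14 and Klf15 had no H3K27ac in their windows in any library. Of 6 with coverage to test, limma called 3 higher in ERY and 0 lower, where 27.8% of all genes tested were higher and 19.1% lower. Klf16, a SIN3A-binding relative of Klf13, was covered at 57.8% and 50.5% in ERY and 11.98% and 18.3% in iMK (adjusted p = 0.00896). Klf11, a relative of Klf10, was covered at 38.2% and 34.4% in ERY and 3.77% and 5.38% in iMK (adjusted p = 0.00656). Klf9 was covered at 21.6% and 15.9% in ERY and 5.52% and 4.57% in iMK (adjusted p = 0.0194). Of 9 SP genes, which encode the related factors that bind the same GC boxes, 7 could be tested, of which 3 were higher in ERY and 0 lower, read against the same shares of all genes. For H3K4me3, limma called none of the KLF or SP genes.

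Genes that work with KLF proteins or downstream of KLF1 were counted on the H3K27ac windows. Of 12 cofactor genes, 6 were higher in ERY and 1 lower, against the 27.8% and 19.1% of all genes. Zfpm1, which encodes the GATA1 partner FOG1, was covered at 44.6% and 43.1% in ERY and 2.45% and 2.71% in iMK (adjusted p = 0.00656). Gata1 itself was covered at 17.0% and 13.8% in ERY and 0% in both iMK libraries (adjusted p = 0.00725). Ctbp2, which encodes a corepressor bound by KLF3, was covered at 0% in both ERY libraries and at 3.13% and 3.29% in iMK (adjusted p = 0.00656). Gata1 in iMK and Ctbp2 in ERY stood at a floor without spread, where H3K27ac below the caller's threshold would not be seen. Of 36 genes listed as KLF1 targets, 28 were higher in ERY and 2 lower, with a median difference of 18.8 points, against 27.8% higher, 19.1% lower and a median of 0.371 points over all genes tested. The widest differences were at Aqp1 (75.2 points), which encodes a water channel, and at the globin genes Hba-a1 (70.4), Hbb-bs (63.9) and Hbb-bt (51.2), where near-identical copies may share reads. The 2 lower genes were Pfkfb4 (-12.0 points), a regulator of glycolysis, and Cd44 (-6.98 points), whose product was among the ERY sort markers. Their H3K27ac promoters were ERY-only in 13 of 36 genes, iMK-only in 0 and shared in 19, where 2.17%, 8.56% and 36.0% of all promoters were. Their H3K4me3 promoters were ERY-only in 11 and iMK-only in 1, where 0.378% and 4.89% of all promoters were. The list shares 6 of its genes with the 8 erythroid markers and was drawn up with results of these libraries known.

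For each KLF gene, the protein-coding genes outside its window with the most similar coverage over the 8 libraries were found by the Euclidean distance between the 8 percentages. The nearest was Slc23a3 for Klf1 (3.05 points), Tbc1d2 for Klf2 (2.76), Pcbp1 for Klf3 (6.83) and Oprl1 for Klf4 (2.17). It was Tomm34 for Klf6 (1.94), Runx3 for Klf7 (1.79), Tmem86a for Klf10 (2.26) and Plekho2 for Klf13 (3.41). Slc23a3 was covered by H3K27ac at 41.2% and 40.4% in ERY and 5.17% and 7.20% in iMK, close to Klf1 in all 4 libraries. Klf3 was the member with the least similar nearest gene.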

How the data were processed

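H3K27ac and H3K4me3 were profiled by ChIP-seq in 8 libraries, and the authors deposited 1 peak list for each, called per library. Bowtie 1.0.0, SICER 1.1 and mm10 stand in the submitters' processing notes, their roles unstated, and the study's general ChIP methods name Bowtie and MACS, with multi-mapping reads allowed in its pipeline. For every peak the authors deposited a fold over the control, which is a ratio, with a p-value and a q-value. Fold and p-value were used to rank or filter peaks within a list. Folds of single peaks are also printed as deposited, and they are not scaled between lists. Wide-window calling joins neighbouring enriched stretches, so peak width depends on depth and background, and the lists hold no read depth. The study's methods call its replicates biological, taken from separate groups of mice or as separately sorted portions of the same mice. The labels do not say which applies here, so p-values measure the spread between these libraries, which may not be a spread between animals.

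Peaks were intersected with the 21938 protein-coding genes of GENCODE vM21 using Python 3.11.15 and pandas 2.3.3. Coverage of gene body plus 50 kb was compared by limma 3.58.1 (R 4.3.3) with a trend, per mark, over genes covered in at least 1 library, and adjusted by Benjamini-Hochberg (threshold 0.05). The interaction was fitted over all 8 libraries. An exact permutation test of 2 libraries against 2 cannot go below a two-sided p of 0.333, so none was run. The limma step was tested on simulated data. Positions are counted from 1, and windows of neighbouring genes overlap.

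All 8 KLF genes are named. Of the listed genes, other KLF genes that were called are named, as are up to 4 KLF1 targets and 2 cofactors in each direction by H3K27ac difference, and the nearest gene in coverage of up to 3 found for each KLF gene. Members, lists and rules were chosen with earlier results of these data known. Alternatives covered the window, peak threshold, list length, normalization, filter, trend, promoter size, overlap and single libraries. Inputs were left out, since they have no peak lists here.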

Additional observations from a re-analysis of the deposited data

How the results depend on the processing

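No paired analysis was possible because the labels number no replicates. Leaving out 1 library leaves its group with a single library, which limma takes to vary like the other group. For Klf4 H3K27ac without an iMK library, that other group was ERY at 0% without spread, so passing there gives no support. Klf4 H3K27ac passed in 12 of 12 alternatives, Klf1 in 11, Klf6 in 9, Klf2 in 8, Klf10 in 4, Klf13 in 4 (1 of them with the opposite sign), Klf7 in 1 and Klf3 in 0. Read depth was not used, so an uncalled promoter may be a limit of the library, and the causes of the changes below were not tested.

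Of the 8 KLF genes, those higher in ERY for H3K27ac numbered 2 as reported, 1 with 10 kb of flank, 0 with the gene body alone, 1 with higher-fold peaks (at or above the median fold of each list), 1 with quantile normalization, 1 with no filter and 1 without each single library. Those lower numbered 3 as reported, 1 with higher-fold peaks, 6 with quantile normalization, and 1 to 3 without single libraries, 1 without either ERY library. For H3K4me3, Klf2 and Klf4 were lower without the first iMK library. There the only spread was that of both ERY libraries at 0%, so this gives no support. Interactions were negative for 2 genes as reported, 0 with 10 kb of flank, 6 with quantile normalization and 0 to 3 with single libraries left out, and positive for 1, or 1 to 3 with single libraries left out (3 without the first iMK library of H3K4me3).

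Directions turned in these cases, in points. For H3K27ac, Klf13 was -0.369 with 10 kb of flank, -4.38 with the gene body alone and -8.95 with quantile normalization, which also gave Klf3 -2.72. For H3K4me3, Klf3 was -1.16 with higher-fold peaks. Quantile normalization gave Klf10 1.64 and Klf13 0.0163. Over single libraries left out, H3K4me3 at Klf1 ran from -3.48 to 4.84, at Klf10 from -1.28 to 1.098 and at Klf13 from -4.78 to 0.459. The Klf3 interaction was -11.3 with 10 kb of flank and -9.89 with quantile normalization, which gave Klf13 -8.97. The Klf4 interaction ran from -2.94 to 2.56 over single libraries left out, with 0.0949 without the second iMK library of H3K27ac.

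Promoter classes changed as follows. H3K27ac gave 1 ERY-only promoter (Klf1) when at least 0.5 of a start window had to be covered, against 0, and 3 shared promoters with higher-fold peaks, against 6. H3K4me3 gave 1 iMK-only and 1 shared promoter with higher-fold peaks, against 2 and 4, and 2 to 4 iMK-only over single libraries left out, with 4 without the first ERY library. H3K27ac regions (8 ERY-only, 18 iMK-only and 15 shared) numbered 1, 11 and 9 with 10 kb of flank and 3, 6 and 4 with higher-fold peaks. Requiring peaks over at least 0.5 of a region gave 13 ERY-only and 4 shared, and single libraries left out gave 8 to 25 ERY-only. H3K4me3 regions (1, 2 and 5) had 0 ERY-only, 1 iMK-only and 0 shared with 0.5 of a region covered, 0 ERY-only and 1 shared with higher-fold peaks, and 2 ERY-only and 3 shared with lists of equal length. With single libraries left out they had 1 to 2 ERY-only and 2 to 8 iMK-only.

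Over all genes, 4752 were higher and 3256 lower for H3K27ac as reported. The counts were 2314 and 1930 with the gene body alone, 2574 and 2135 around start sites, 2675 and 1169 with higher-fold peaks, 3189 and 2490 with 10 kb of flank, and 3971 and 2179 without the trend. Calls higher in ERY made up 59.3% as reported, 51.3% with quantile normalization and 69.6% with higher-fold peaks. Without the first or the second ERY library the counts were 2876 and 608 or 4321 and 793, and without the first or the second iMK library 810 and 3370 or 703 and 2834. For H3K4me3 they were 0 and 0 as reported, 11 and 5 with quantile normalization, and 12 and 3588 without the first iMK library.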
